A study of Mus musculus with 10 samples.

Results

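Beta cells were described in single-cell RNA sequencing libraries of embryonic mouse pancreas. The members were chosen by their transcripts. A cell was taken as a beta cell where *Ins1* and *Ins2* together made up at least 1% of its UMIs (unique molecular identifiers, which count single captured transcripts), where *Gcg* was under 1%, *Sst* under 0.5% and *Ghrl* under 0.3%, and where it held at least 1 *Chga* UMI and at most 1 *Col3a1* UMI. Of 40182 cells with 200 or more genes at E14.5 and E17.5, 1500 met this rule, a share of 3.73% with an exact 95% binomial interval of 3.55 to 3.92%, which covers counting error only. The 7 genes of the rule chose the cells, so their values are given as a description, and they were left out of every test and of the totals used for scaling.

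The libraries were made with the 10x Genomics platform, and each E14.5 and E17.5 pool of pancreata came from 1 litter. Wild-type Swiss Webster embryos gave the Batch libraries of the version 1 kit (Batch 1 and Batch 2 at E14.5, Batch 2 at E17.5), in which all live cells were collected. Swiss Webster embryos also gave the SW libraries of the version 2 kit at E14.5 and E17.5, from which CD140a-positive cells had been removed by sorting. At E17.5 the SW suspension was loaded in 2 wells, which were summed as 1 pool. The last pool, also of the version 2 kit, came from E14.5 Fev-Cre; ROSA26mTmG embryos, kept on a C57BL/6J background. In these mice Cre is driven by *Fev*, recombined cells and their progeny carry membrane *eGFP* and all others *tdTomato*. Sorted eGFP-positive cells were mixed with sorted negative cells before loading, so that library was enriched for the *Fev* lineage. Dissociation took 15 min at E14.5 and 30 min at E17.5, so stage, litter and dissociation time cannot be told apart. Embryos were pooled, and the pool was therefore the replicate, with 4 pools at E14.5 and 2 at E17.5.

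Beta cells are the pancreatic endocrine cells that make, store and secrete insulin. In the mouse embryo they arise from *Neurog3* (Ngn3) expressing progenitors by way of cells that express *Fev*, and the transcription factors *Pdx1* and *Nkx6-1* are known for their part in this lineage. Insulin is translated as a precursor into the endoplasmic reticulum, folded there, cleaved by prohormone convertases and packed with zinc and other peptides, among them amylin (*Iapp*), into granules that are released when glucose enters the cell and is phosphorylated.

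The mouse has a pair of insulin genes, and the promoter of *Ins1* is shown with that of *Iapp*, a granule peptide that was higher in beta cells with more insulin. The sequences are from RefSeq on GRCm38.p6 and run from 250 bases before to 50 bases after the annotated start. Capitals mark GCCATCTG or its reverse complement CAGATGGC, an E-box element known from insulin promoters. *Ins1* lies at chr19:52264047-52264346 on the + strand and *Iapp* at chr6:142298175-142298474 on the + strand.
Ins1 promoter: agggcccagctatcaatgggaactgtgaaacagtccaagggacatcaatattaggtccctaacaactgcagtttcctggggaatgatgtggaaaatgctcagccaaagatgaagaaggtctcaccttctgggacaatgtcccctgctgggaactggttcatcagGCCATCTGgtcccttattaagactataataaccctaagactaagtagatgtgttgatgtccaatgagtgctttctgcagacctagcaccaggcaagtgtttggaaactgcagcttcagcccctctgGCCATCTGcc
Iapp promoter: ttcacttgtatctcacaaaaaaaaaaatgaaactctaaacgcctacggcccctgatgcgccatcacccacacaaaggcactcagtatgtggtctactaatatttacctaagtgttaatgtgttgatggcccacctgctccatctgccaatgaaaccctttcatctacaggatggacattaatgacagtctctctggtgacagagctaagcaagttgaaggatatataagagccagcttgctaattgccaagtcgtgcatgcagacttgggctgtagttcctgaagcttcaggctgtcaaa
The element matched at 2 places in the *Ins1* window and at 0 in the *Iapp* window, and 1.32% of all 32851 RefSeq promoter windows of 300 bases held it. The core TAAT or ATTA, found in sites of homeodomain factors such as *Pdx1*, matched at 3 places in *Ins1* and at 5 in *Iapp*, and 58.0% of the windows held it. TGCAGC or GCTGCA, a core found in sites of *Maf* factors, matched once in *Ins1* and at 0 places in *Iapp*, against 20.7% of the windows. No factor binding was measured in these data.

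Insulin took up a larger part of the transcripts of beta cells at E17.5 than at E14.5. At E14.5 the median share of a beta cell's UMIs that was insulin was 10.4% in Batch 1, 7.57% in Batch 2, 10.5% in SW and 5.32% in Fev-Cre. At E17.5 it was 17.8% in Batch 2 and 36.2% and 38.7% in the SW wells. All E17.5 medians lay above all E14.5 medians, and the insulin share of single cells reached 82.6% in the second SW well. These shares are descriptions, since insulin chose the cells.

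The spread within each pool was wide. The central 80% of cells ran from 1.55 to 25.7% insulin in E14.5 Batch 1, from 1.48 to 17.7% in Fev-Cre, from 2.97 to 40.9% in E17.5 Batch 2 and from 5.97 to 53.5% in the first E17.5 SW well. Cells with over 20% insulin made up 6.53% of beta cells in Fev-Cre, 30.1% in E14.5 SW and 74.1% and 76.8% in the E17.5 SW wells. Of all insulin UMIs, *Ins1* gave 17.51% in E14.5 Batch 1, 17.9% in E14.5 Batch 2, 19.6% in E14.5 SW and 26.9% in Fev-Cre. It gave 22.1% in E17.5 Batch 2 and 37.6% and 36.4% in the E17.5 SW wells, so *Ins2* was the larger part in every library. The values at E17.5 Batch 2 and Fev-Cre overlapped in order, and the E17.5 SW wells stood above all others.

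**Figure D1:**
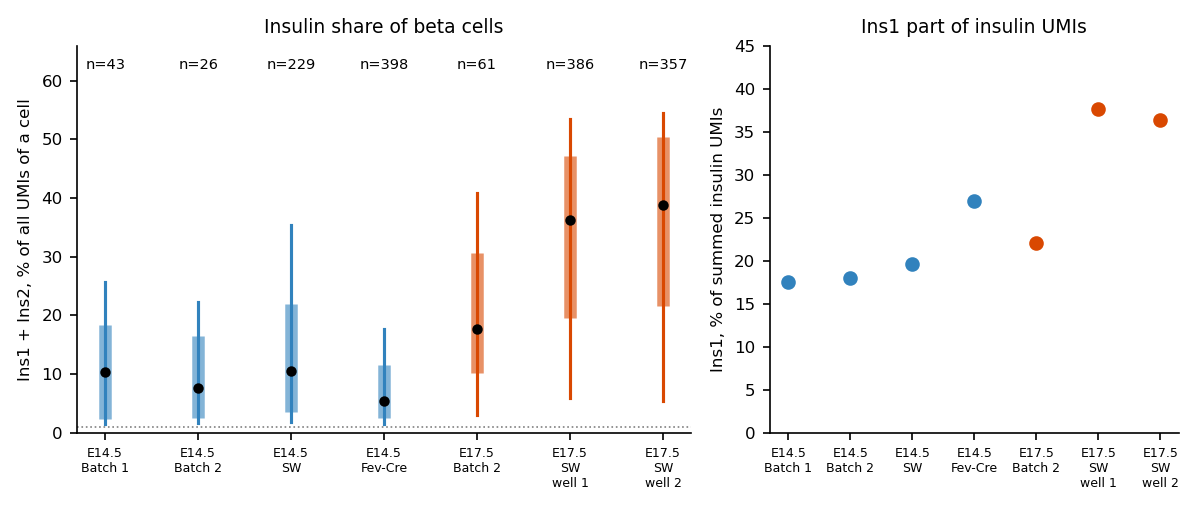
Left, insulin (*Ins1* + *Ins2*) as % of all UMIs of a beta cell, by library. The point is the median, the thick bar the central 50% and the thin line the central 80% of cells, and the dotted line marks the 1% of the rule. Right, *Ins1* as % of summed insulin UMIs of the same cells. The E17.5 medians (17.8, 36.2 and 38.7%) lie above the E14.5 medians (5.32 to 10.5%).

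Beta cells numbered 43 in E14.5 Batch 1, 26 in E14.5 Batch 2, 229 in E14.5 SW, 398 in Fev-Cre, 61 in E17.5 Batch 2 and 386 and 357 in the E17.5 SW wells. As a share of kept cells this was 1.21%, 0.570%, 2.52%, 5.04%, 2.64%, 6.0% and 5.63%, over cells that had been sorted differently. Among beta cells and other *Chga* cells together, beta cells made up 20% in E14.5 Batch 1, 9.74% in E14.5 Batch 2, 21.1% in E14.5 SW, 13.9% in Fev-Cre, 26.4% in E17.5 Batch 2 and 39.1% and 36.5% in the E17.5 SW wells. At the threshold, 90 members held 1 to 1.5% insulin and 151 cells that met the other terms held 0.5 to 1%. Their median shares were 1.17 to 1.38% on the inside and 0.627 to 0.821% on the outside over the libraries. At E12.5, 0 cells of 4618 in the Batch library and 5 of 13182 in the SW library met the rule.

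The label was checked against *Iapp*, *Nnat* and *G6pc2*, which the rule does not use. Summed over beta cells, the level of *Iapp*, the amylin precursor, was 13213 CPM in the lowest pool, 25016 at the median and 52431 in the highest, where CPM is UMIs per 1000000 UMIs outside the 7 genes of the rule and mitochondrial genes. In other cells with 2 or more *Chga* UMIs (other *Chga* cells) it was 1593, 3774 and 8583 CPM. *Nnat*, an imprinted gene for a small endoplasmic reticulum membrane protein, stood at 4122, 8884 and 15105 CPM against 232, 484 and 795. *G6pc2*, the islet glucose-6-phosphatase that sets the threshold of glucose sensing, stood at 204, 295 and 347 CPM against 15.6, 21.2 and 41.0. The ranges of beta cells and other *Chga* cells did not overlap for any of these, so the data went with the label.

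Free insulin RNA in the droplets was high in the E17.5 SW wells. In cells with 5 or more *Col3a1* UMIs, which are not endocrine, insulin made up 0.685 and 0.951% of summed UMIs there, close to the 1% of the rule, against 0.00512 to 0.159% in the other pools. At least 1 *Ins2* UMI was found in 99.7 and 98.4% of these *Col3a1* cells in the E17.5 SW wells, at a median depth of 11968 and 10810 UMIs. The central cells of the SW beta class, at a median of 36.2 and 38.7% insulin, lay far above this level. *Gcg*, the glucagon gene, was found in 87.9% of Fev-Cre beta cells and 82.9% of Fev-Cre *Col3a1* cells, and in 57.5% against 36.5% in the first E17.5 SW well, at median depths of 21792.5 and 11968 UMIs. Since *Gcg* was a gene of the rule, its level in beta cells says nothing of the source of these UMIs.

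Median depth of beta cells was 4067 and 6577.5 UMIs in the E14.5 Batch libraries, 6945 in E14.5 SW, 8964 in Fev-Cre, 5058 in E17.5 Batch 2 and 21792.5 and 20883 in the E17.5 SW wells, above the 2931 to 9590.5 of other *Chga* cells of the same libraries in every case. These depths include insulin. Outside the genes of the rule, E14.5 SW beta cells were at a median of 5709 UMIs and other *Chga* cells at 5993. In the other libraries beta cells were still the deeper class. The E17.5 wells shared 119 barcodes, of which 1 was a beta cell in both, and other pairs of libraries shared at most 156, apart from the 2 alignments of Fev-Cre. No doublet caller was run. Of the 1500 beta cells, 69 held at least 30% of the median share that a reference cell of another compartment gives to its own marker genes (doublet-like cells), 38 of them in the E17.5 SW wells. The compartments were acinar, mesenchymal, erythroid, endothelial and immune. A fall of their markers without these cells follows in part from that choice.

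Compared with other *Chga* cells of the same pool, beta cells carried more transcript of 9 of 16 genes of a glucose sensing and excitation list, which also holds receptors and channels. The same held for 10 of 29 prohormone processing and granule genes and 15 of 28 endoplasmic reticulum folding genes. Beta cells carried less of 8 of 15 endocrine progenitor genes and of several transcription factors of the other hormone lineages. The lists were chosen with earlier results of these data known. Their counts and medians, here and below, are therefore descriptions and no independent evidence. *Npy*, which encodes neuropeptide Y, *Tmem215* and *Nnat* were among the genes with the largest differences, and *Pdx1* and *Nkx6-1* were about 2-fold higher. The comparison asked what, besides insulin, set beta cells apart from other *Chga* cells of the same pool. That class had no limit on *Col3a1* and was not endocrine alone. Its summed acinar genes reached 13717 CPM in the second E17.5 SW well. Over 6 pools, 9185 genes were tested with edgeR's quasi-likelihood test on UMIs summed per pool and class, with a block for the pool. Calls required a Benjamini-Hochberg adjusted p below 0.05 together with a change of at least 2-fold, and 301 genes (3.28%) were called higher and 455 (4.95%) lower in beta cells, with a median log2 difference of -0.06 over all genes tested. With totals that include the insulin genes and no TMM scaling, the split was 169 higher against 867 lower and the median -0.38, so directions below are relative to the median gene. Without E17.5 Batch 2 705 genes were called lower, and without doublet-like cells 278.

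Among beta-lineage transcription factors, 3 of the 7 tested were called higher and 2 lower, with a median log2 difference of 0.95. *Pdx1*, which binds the insulin promoters, was at 336 CPM in the lowest pool, 515 at the median and 604 in the highest in beta cells, against 147, 246 and 325 in other *Chga* cells. The ranges did not overlap, and the log2 difference was 1.13 (SE 0.08, adjusted p = 6.3e-09 by edgeR). *Nkx6-1*, a homeodomain factor kept in beta cells and shut off in alpha cells, was at 283, 419 and 609 CPM against 102, 241 and 343. Its ranges overlapped across pools, but it was higher in beta cells in 6 of 6 pools, by 1.07 (SE 0.12, adjusted p = 4.1e-06 by edgeR). *Mnx1* differed by 1.1 (SE 0.19, adjusted p = 1.5e-04 by edgeR) and was higher in 5 of 6 pools. Without the doublet-like cells 1 of the 7 was called higher, and with the other totals 0. *Mafa*, the factor of adult beta cells, had 5 UMIs in all 1500 beta cells. *Pax4* and *Etv1* were the members called lower, *Pax4* by 2.46 (SE 0.66) on the log2 scale. *Etv1* had 290 UMIs in all beta cells, found in 4 pools, so no fold is given for it.

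Transcription factors shared by endocrine cells mostly differed little. Of 14 tested, 1 was called higher and 0 lower, with a median log2 difference of 0.03, and 2 were higher and 4 lower at an adjusted p below 0.05 at any size. The called gene was *Mlxipl*, the glucose-responsive factor ChREBP, at a median of 247 CPM in beta cells against 86.6, which differed by 1.63 (SE 0.11, adjusted p = 2.6e-09 by edgeR) with no overlap of the ranges.

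Genes of glucose sensing and excitation were the list with the highest median difference, 1.76 on the log2 scale. Of the 16 tested, 9 were called higher and 0 lower, on a list chosen with earlier results known. *Slc2a2*, the glucose transporter GLUT2, was at 180 CPM in the lowest pool, 270 at the median and 383 in the highest in beta cells, against 12.1, 22.2 and 38.6 in other *Chga* cells. It differed by 3.57 (SE 0.18, adjusted p = 2.1e-08 by edgeR), and *G6pc2* differed by 3.49 (SE 0.26, adjusted p = 3.5e-05 by edgeR). *Trpm5*, a calcium-activated cation channel, was at 21.1, 69.8 and 105 CPM against 1.59, 5.64 and 8.64, a log2 difference of 3.55 (SE 0.37, adjusted p = 1.1e-04). All of these ranges were separate. The receptors *Adra2a* (2.48, SE 0.15), *Ffar1* (2.14, SE 0.13) and *Gcgr* (2.27, SE 0.26), for adrenaline, fatty acids and glucagon, were called higher with separate ranges, as was *Tmem215* (4.75, SE 0.19). *Gjd2*, the connexin that couples beta cells, was higher in 6 of 6 pools by 1.39 (SE 0.17). *Ucn3*, a marker of later beta cells, was called at 2.97 (SE 0.57) but was at 0 CPM in E14.5 Batch 2 and between 20.2 and 108 CPM in the other pools. *Kcnj11* and *Glp1r*, at 5 and 11 UMIs over all beta cells, were not tested.

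Of 29 genes of prohormone processing and granules, 10 were called higher and 0 lower, with a median of 0.73, and 20 higher and 1 lower at an adjusted p below 0.05 at any size. *Sytl4*, a granule protein that binds Rab proteins, was at 236 to 326 CPM in beta cells and at 14.1 to 44.2 CPM in other *Chga* cells, a log2 difference of 3.68 (SE 0.17, adjusted p = 3.2e-09 by edgeR). *Iapp* differed by 2.85 (SE 0.09, adjusted p = 3.6e-12 by edgeR) and *Ero1lb*, the oxidase that renews disulphide bonds in islet cells, by 2.71 (SE 0.10, adjusted p = 6.7e-13). The zinc transporter *Slc30a8* (1.88, SE 0.15), the granin *Scg2* (1.91, SE 0.13) and the convertase *Pcsk1* (1.40, SE 0.16) were each higher in 6 of 6 pools. *Pcsk2*, the other convertase, fell just short of the call at 0.93 (SE 0.08). *Chgb*, a granin, was at a median of 2945 CPM in beta cells and 5035 in other *Chga* cells, and its difference of -0.59 (SE 0.37) did not pass the test.

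Endoplasmic reticulum folding and stress genes shifted together. Of 28 tested, 15 were called higher and 0 lower, 27 were higher at an adjusted p below 0.05 at any size, and the median was 1.07. *Sdf2l1*, a component of the chaperone complex, was at 734, 1416 and 1856 CPM in beta cells (lowest, median and highest pool) against 132, 166 and 209. It differed by 2.87 (SE 0.15, adjusted p = 3.1e-07 by edgeR), and *Creld2* and *Hyou1* differed by 2.49 (SE 0.11) and 2.38 (SE 0.11). *Hspa5*, the chaperone BiP, was at 2154 to 3633 CPM against 839 to 1226, a log2 difference of 1.43 (SE 0.13, adjusted p = 1.4e-05 by edgeR). The ranges of all 4 genes were separate. *Atf4*, a factor of the stress response, was the member that did not pass at any size, with medians of 159 and 153 CPM and a difference of -0.06 (SE 0.10).

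**Figure D2:**
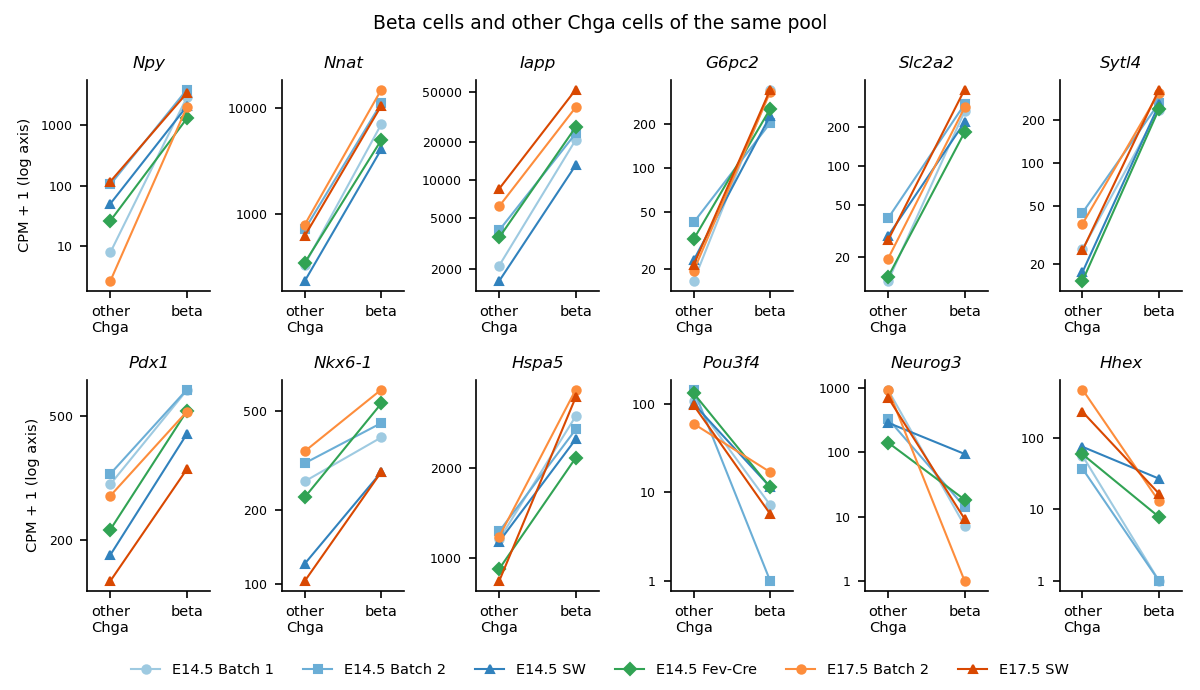
CPM + 1 on log axes of 12 genes in other *Chga* cells (left) and beta cells (right) of each of 6 pools, with lines joining the classes of a pool. *Npy*, *Nnat*, *Iapp*, *G6pc2*, *Slc2a2*, *Sytl4*, *Pdx1*, *Nkx6-1* and *Hspa5* lie higher in beta cells in every pool, and *Pou3f4*, *Neurog3* and *Hhex* lie lower in every pool.

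Transcription factors and markers of the other endocrine lineages were lower. Of 17 alpha, delta and epsilon lineage genes tested, 10 were called lower and 0 higher, with a median of -1.61. *Irx2*, a factor of alpha cells, was at 0, 12.7 and 31.6 CPM in beta cells against 21.9, 90.9 and 126, lower in 6 of 6 pools by 2.93 on the log2 scale (SE 0.61, adjusted p = 0.015 by edgeR). *Hhex*, the factor of delta cells, was at 0 to 25.9 CPM against 36.2 to 474. It had 217 UMIs in all beta cells, found in 4 pools, so no fold or test is given for it. *Mboat4*, the enzyme that acylates ghrelin, was at 0 to 1.49 CPM against 14.8 to 77.0. The choice of cells by hormone bears on these genes, since cells with *Gcg*, *Sst* or *Ghrl* were put in the other class. *Pyy*, peptide YY, was not called, with medians of 6833 and 9784 CPM and a difference of -0.85 (SE 0.59, adjusted p = 0.34 by edgeR).

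Endocrine progenitor genes were lower as well, 8 of 15 called lower and 0 higher with a median of -1.04. *Neurog3*, the factor that starts endocrine differentiation, was at 0, 10.6 and 92.6 CPM in beta cells against 140, 515 and 934, with no overlap of the ranges. Its log2 difference was -4.04 (SE 0.89, adjusted p = 0.021 by edgeR), and the call was lost when Batch 1 or Batch 2 of E14.5, E17.5 Batch 2 or Fev-Cre was left out, at differences of -3.86, -3.99, -3.79 and -4.46. *Fev*, which marks the stage after *Neurog3*, was at 19.7, 126 and 155 CPM against 63.6, 432 and 809, lower in 6 of 6 pools by 1.74 (SE 0.13, adjusted p = 1.5e-07 by edgeR). *Runx1t1* and *Vim*, a marker of progenitors and mesenchyme, were lower by 2.36 (SE 0.30) and 2.45 (SE 0.25) with separate ranges.

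Of 22 cell cycle genes, 12 were called lower in beta cells than in other *Chga* cells and 0 higher, with a median of -1.09 and 20 lower at an adjusted p below 0.05 at any size. That count moved with the cells and pools used. It was 1 of 20 without doublet-like cells, 1 of 20 without Fev-Cre, 6 of 22 without E14.5 Batch 1, 7 of 22 without E14.5 Batch 2, 7 of 18 without E14.5 SW and 1 of 9 with cells thinned to 2000 UMIs. *Top2a*, a topoisomerase of dividing cells, was at 0, 18.1 and 45.6 CPM against 5.02, 67.3 and 106. Among cyclins D and inhibitors of the cycle, *Cdkn1a* was at 38.4 to 110 CPM in beta cells against 208 to 877 and was called lower by 2.62 (SE 0.41, adjusted p = 0.0057 by edgeR). *Ccnd1* and *Cdkn1c* were the other members called lower of 11 tested, and *Cdkn2b*, at a median of 15.5 against 5.03 CPM, was the 1 called higher.

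The genes with the largest rise that were alike in every pool and reached 50 CPM were *Npy*, *Tmem215*, *Syndig1l*, *Gip*, *C2cd4a*, *Nnat*, *Prss53*, *Bace2*, *Arhgap36* and *P2ry1*. *Npy* was at 1289 CPM in the lowest pool, 2466 at the median and 3854 in the highest, against 1.67, 37.4 and 116, a log2 difference of 5.67 (SE 0.49, adjusted p = 5.6e-04 by edgeR). *Gip*, the incretin gene of gut endocrine cells, was at 55.8, 642 and 2817 CPM against 3.35, 26.9 and 53.9, a log2 difference of 4.25 (SE 0.51, adjusted p = 0.0021 by edgeR). The ranges of all 10 genes were separate, in part since they were chosen by size and by the same direction in every pool. *Nnat* differed by 4.13 with the smallest error (SE 0.08, adjusted p = 3.2e-17 by edgeR), and the others lay between 3.82 and 4.75. *Bace2* is a protease known to cleave *Tmem27* in beta cells, and *P2ry1* is a receptor for ADP.

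By the same rule the genes with the largest fall included *Neurog3*, *Pou3f4*, *Hhex*, *Dcn*, *Col1a2*, *Irx2*, *Etv1*, *Col1a1* and *Nefm*. *Pou3f4*, a factor of alpha cells, was at 0, 8.31 and 15.9 CPM in beta cells against 58.6, 103 and 144, lower by 3.79 (SE 0.20, adjusted p = 1.7e-10 by edgeR). *Dcn*, *Col1a2* and *Col1a1* are genes of mesenchyme, the rule held beta cells to at most 1 *Col3a1* UMI, and the other class was not so held. With other *Chga* cells held to at most 1 *Col3a1* UMI, *Col1a1* turned from -2.83 to 0.20, and *Dcn* and *Col1a2* were no longer called at -0.79 and -0.84.

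Of imprinted genes, which are expressed from 1 parental copy, 3 of 21 tested were called higher and 7 lower, with a median of -0.65. *Dlk1*, a membrane protein of the Notch ligand family, was at 1485 to 3720 CPM against 671 to 1365, a log2 difference of 1.22 (SE 0.19, adjusted p = 0.0030 by edgeR), and *Rasgrf1* differed by 2.20 (SE 0.29). *Nnat* was the other member called higher. *H19*, *Igf2*, *Cdkn1c* and *Mest*, regulators of fetal growth, were lower by 1.81, 1.52, 1.39 and 2.38. The other class was not held to the limit on *Col3a1*, and against hormone-low cells, where 3 of 20 imprinted genes were higher and 3 lower with a median of -0.24, *H19* and *Mest* were called lower by 1.35 and 1.29 while *Igf2* differed by -0.35 and *Cdkn1c* by -0.42 and were not called. Of the genes kept low in mature beta cells, 6 of 9 tested were called lower and 1, *Npy*, higher, with a median of -1.69, against 1 of 7 lower and a median of -0.76 without doublet-like cells. Against alpha cells 0 of 7 were lower and 2 higher, with a median of -0.12. *Ldha*, lactate dehydrogenase, was lower in 6 of 6 pools by 1.69 (SE 0.33, adjusted p = 0.011 by edgeR) and differed from alpha cells by -0.22 (SE 0.15, adjusted p = 0.35). Of serotonin genes 3 were tested, and *Maob*, which breaks down amines, was called higher at 59.1 to 132 CPM against 8.64 to 28.8. The genes that the study itself had named for the beta branch, chosen on these libraries and so no independent evidence, had 5 of 7 called higher, 0 lower and a median of 1.27, led by *Papss2* (2.25, SE 0.11) and *Gng12* (2.18, SE 0.09).

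Markers of other cell types also differed, and their part in the results was not tested. Summed over the list, acinar genes were at 256 to 4890 CPM in beta cells and 306 to 13717 CPM in other *Chga* cells over the libraries, with 5 of 10 called lower and 0 higher, 4 of 10 to 11 of 12 with 1 pool left out and 0 of 6 without doublet-like cells. Mesenchymal genes were at 43.9 to 147 CPM against 256 to 1114, with 5 of 5 lower where the other class was not held to the limit on *Col3a1*, and with that limit on both classes *Dcn* and *Col1a2* were not called and *Col1a1* was at 0.20. Ductal genes had 3 of 10 lower and 0 higher. Erythroid genes were at 5.06 to 61760 CPM against 4.49 to 70013, with 0 of 5 called in either direction by edgeR, 5 lower at an unadjusted p below 0.05, 3 called lower by DESeq2 and a median difference of -1.80. Of 4 immune genes tested, *Lyz2* and *C1qb* were lower, *C1qa* was higher at 69.1 to 171 CPM against 20.1 to 84.3, and *Ptprc*, which defines leukocytes, was at 11 UMIs in all beta cells. The 1 endothelial gene tested was not called, and 0 of 7 neural crest genes passed the filter on low counts, at a summed 6.20 to 13.6 CPM in beta cells.

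Against alpha cells, beta cells carried more transcript of beta-lineage factors such as *Pdx1* and *Nkx6-1*, of genes of the glucose sensing and excitation list and of most folding genes, and less of the alpha, delta and epsilon lineage genes. Alpha cells were taken by the mirrored rule, with *Gcg* at 1% or more and insulin under 1%, and numbered 964. Both classes were present with 10 or more cells in 5 pools, since E17.5 Batch 2 held 6 alpha cells. Of 8700 genes, 386 (4.44%) were called higher and 276 (3.17%) lower in beta cells, with a median of -0.02. With totals that include the insulin genes and glucagon the split was 234 higher and 527 lower. Without E17.5 SW 313 genes were called in all, and without Fev-Cre 411. This comparison shares its beta cells with the preceding one, so its values are given side by side and not as further support.

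*Pdx1* was at 336 to 604 CPM in beta cells of these 5 pools against 30.1 to 141 in alpha cells, a log2 difference of 2.98 (SE 0.21, adjusted p = 1.5e-06 by edgeR), where it had been 1.13 against all other *Chga* cells. *Nkx6-1* differed by 2.59 (SE 0.18, adjusted p = 3.2e-08 by edgeR), *Mnx1* by 2.83 (SE 0.30) and *Mlxipl* by 3.37 (SE 0.26). Of 6 beta-lineage factors tested 3 were called higher and 1, *Etv1*, lower. Since *Etv1* was found in beta cells of 4 pools only, no fold is given for it here either. *Sytl4* was at 236 to 326 CPM against 0 to 1.91, with 13 UMIs in all alpha cells, found in 2 pools. It passed the filter on low counts through beta cells, so no fold or test is given for it. *Npy* was at 1289 to 3854 CPM against 0 to 14.1, with 93 UMIs in all alpha cells, found in 3 pools. For the same reason no fold or test is given for *Npy*.

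Of 28 folding genes, 21 were called higher and 0 lower, with a median of 1.35 against -0.02 for all genes. *Sdf2l1* was at 734 to 1488 CPM in beta cells against 73.5 to 198 in alpha cells and differed by 3.11 (SE 0.40, adjusted p = 0.0079 by edgeR). Of the glucose sensing and excitation list 9 of 17 genes were higher and 0 lower, with a median of 1.17. *Slc2a2* had 48 UMIs in all alpha cells, found in 4 pools, against 4766 in beta cells, so no fold or test is given for it. *Adra2a* had 15 UMIs in all alpha cells, found in 3 pools, against 1226 in beta cells, so no fold is given. *Abcc8*, a subunit of the potassium channel closed by ATP, differed by -0.02 (SE 0.11, adjusted p = 0.95 by edgeR). Of granule genes 7 of 29 were higher and 1, *Resp18*, lower. The shared processing genes *Pcsk2* (-0.04, SE 0.08) and *Cpe* (-0.25, SE 0.09) were not called.

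The lineage genes of alpha, delta and epsilon cells had 12 of 17 called lower and 0 higher, with a median of -2.67. *Irx1*, a factor of alpha cells, was at 0 to 18.6 CPM in beta cells against 126 to 376. It had 67 UMIs in all beta cells, found in 4 pools, so no fold or test is given for it. *Gast* was at 15.7 to 235 CPM against 416 to 2277, lower by 3.66 (SE 0.38). *Ttr*, transthyretin, was at 2965 to 7203 CPM against 11772 to 18891, lower by 1.37 (SE 0.26, adjusted p = 0.027 by edgeR). Cell cycle genes had 0 of 21 called by edgeR, 2 lower at an adjusted p below 0.05 at any size, 3 lower at an unadjusted p below 0.05 and 0 called by DESeq2. Progenitor genes had 1 of 15 higher, *Gadd45a*, and 2 lower.

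Against *Chga* cells low in all hormones of the rule (hormone-low cells, 3311), which make up most of the other *Chga* class, beta cells carried more transcript of many genes of the glucose sensing and excitation, granule and folding lists and less of many progenitor genes. Of 8775 genes tested in 6 pools, 395 (4.5%) were called higher and 364 (4.15%) lower in beta cells, with a median of -0.02, and the split was 183 higher against 863 lower with the other totals. The lower calls numbered 553 to 643 without one of the Batch pools and 219 to 235 without E17.5 SW, E14.5 SW or Fev-Cre, and without E17.5 SW 241 genes were called higher. Progenitor genes had 9 of 16 lower and 0 higher, with a median of -1.37, and 11 of 16 lower without doublet-like cells. Acinar genes moved with this comparison, with 7 of 10 lower and 0 higher and a median of -1.85. In the E17.5 SW wells their summed level was 3189 and 3106 CPM in beta cells against 14200 and 24436 CPM in hormone-low cells, and without doublet-like cells 0 of 6 were called. Ductal genes had 4 of 10 lower and cell cycle genes 8 of 21 lower, 3 of 10 and 1 of 17 without doublet-like cells, and 0 were higher in either list. Their part in the progenitor calls was not tested further. *Neurog3* was at 0 to 92.6 CPM in beta cells against 200 to 1400 and was lower by 4.57 (SE 1.05, adjusted p = 0.024 by edgeR), and *Fev* was at 19.7 to 155 CPM against 102 to 1103 and was lower by 2.20 (SE 0.15, adjusted p = 2.1e-07). *Neurod2* was at 0 to 6.17 CPM against 9.09 to 138.

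The glucose sensing and excitation list had 10 of 16 genes higher, granule genes 12 of 29 and folding genes 16 of 28, with 0 lower in each and medians of 1.71, 0.72 and 1.29. *Iapp* was at 13213 to 52431 CPM against 1312 to 4123 and differed by 3.63 (SE 0.09, adjusted p = 6.9e-15 by edgeR). Of beta-lineage factors 0 of 7 were called higher, 4 were higher at an adjusted p below 0.05 at any size, 4 at an unadjusted p below 0.05 and 0 by DESeq2 with the size limit, and 2 were lower. *Pdx1* differed by 0.78 (SE 0.09) and *Nkx6-1* by 0.68 (SE 0.11), both under 2-fold, as the hormone-low cells carried them at medians of 315 and 310 CPM.

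In the Fev-Cre library, beta cells carried the *eGFP* transcript of the traced lineage almost without exception. Thinned to 2000 UMIs per cell, 94.5% of 398 beta cells had an *eGFP* UMI, with an exact binomial interval of 91.8 to 96.5%, and 94.0% of 547 alpha cells (91.6 to 95.8%). The share was 81.2% in hormone-low cells, 7.85% in *Col3a1* cells and 5.78% in cells with 3 or more *Cpa1* UMIs and 0 *Chga*, which give the background of free RNA and of other labelled cells. Unthinned, these shares were 99.7, 99.8, 89.0, 20.1 and 28.4%, at median depths of 8964, 8903, 6886, 7188 and 16545.5 UMIs. The *tdTomato* transcript was found in 1.01% of thinned beta cells, 0.805% of hormone-low cells, 3.27% of *Col3a1* cells and 1.57% of the *Cpa1* cells. It was rarely detected in any of these classes, so its low share in beta cells shows no loss of it. The shares depend on the mix of sorted eGFP-positive and negative cells that was loaded. This was 1 library, so no test was made, and the intervals cover counting error only.

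Between E14.5 and E17.5, beta cells gained transcripts of the zinc transporter *Slc30a8*, of the convertase *Pcsk1* and its inhibitor *Pcsk1n*, and of *Scg2*, *Iapp* and *Nnat*, and lost those of the peptides *Cck*, *Gast* and *Sct* and of the factor *Isl1*. For *Nnat* the stages overlapped, with E17.5 SW below E14.5 Batch 2. The comparison asked how the same class changed with age. With 4 pools against 2 and a term for the Batch or the version 2 data set, 54 of 8852 genes (0.61%) were called higher at E17.5 and 28 (0.316%) lower, and the median was -0.01. With totals that include the insulin genes and no TMM scaling the split was 21 against 323 and the median -0.69. Without Fev-Cre 40 genes were called, 29 of them among the 82 called with all pools. Without the data set term 21 were called, and all 21 were among the 82. With E17.5 SW or E17.5 Batch 2 left out, 1 pool stood for E17.5, and the set of called genes changed in large part. On simulated data the fit recovered 62% of genes that differed by 1.5 on the log2 scale.

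*Slc30a8* was at 180, 171, 144 and 109 CPM in the E14.5 pools (Batch 1, Batch 2, SW, Fev-Cre) and at 801 and 749 CPM in the E17.5 pools (Batch 2, SW). The groups did not overlap, and it rose by 2.60 on the log2 scale (SE 0.26, adjusted p = 5.6e-06 by edgeR). *Prss53* went from 86.8, 151, 67.9 and 59.6 to 370 and 299 CPM (2.20, SE 0.28, adjusted p = 8.7e-05 by edgeR). *S100a10* went from 31, 46.0, 48.8 and 64.9 to 199 and 323 CPM (2.69, SE 0.28, adjusted p = 9.6e-06). *Fmo1* and *Actn3*, the other genes with the largest rise, differed by 2.23 (SE 0.37) and 2.13 (SE 0.39). Both calls were lost without E17.5 SW, which leaves 1 pool at E17.5.

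*Prlr*, the prolactin receptor, which serves the growth of beta cells in pregnancy, had 0 UMIs in all 4 E14.5 pools, out of 5290906 UMIs outside the genes of the rule. It had 4 UMIs in E17.5 Batch 2 (15.9 CPM) and 934 in E17.5 SW (97.8 CPM). Allowing 3 counts over the E14.5 group, it was at least 172-fold higher in E17.5 SW. The same reckoning gave 28.1-fold for E17.5 Batch 2. That value rests on 4 UMIs and on an E14.5 total mostly from the version 2 pools, so it is no lower bound. *Prlr* passed the filter on low counts only through the E17.5 pools, so no test is given for it, although the 54 genes include it.

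Among granule genes, 6 of 29 were called higher and 0 lower, with a median of 0.52. *Pcsk1* was at 310, 315, 208 and 291 CPM at E14.5 and at 609 and 526 CPM at E17.5, a rise of 1.24 (SE 0.25, adjusted p = 0.011 by edgeR). *Iapp* went from 20963, 23572, 13213 and 26460 to 37969 and 52431 CPM (1.31, SE 0.29, adjusted p = 0.027 by edgeR). *Scg2* went from 335, 433, 396 and 554 to 637 and 1513 CPM (1.46, SE 0.28, adjusted p = 0.0083). The E17.5 pools lay above all E14.5 pools for each of these, most narrowly for *Scg2* in E17.5 Batch 2. Of the 82 genes called between stages, 63 had separate stages in the direction of their change. No share over all genes tested is given beside it, so that number is a description only. The count of called granule genes was 1 of 29 with the other totals. It also fell without E17.5 SW, which leaves 1 pool at E17.5.

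Of the glucose sensing and excitation list, the cation channel *Trpm5* and *Tmem215* were called higher and 0 genes lower. The count of the fit, 3 of 17 tested, includes *Prlr*, which entered through its E17.5 level only and is no support. DESeq2 called 0 of 17, and edgeR called 0 of 13 without E14.5 SW and 0 of 14 without E17.5 SW. The glucose transporter *Slc2a2* differed by 0.76 (SE 0.28, adjusted p = 0.33 by edgeR), *G6pc2* by 0.63 (SE 0.26, adjusted p = 0.47) and *Ucn3* by 2.00 (SE 0.53, adjusted p = 0.18), so they did not pass. Folding genes had 3 of 28 higher, *Hyou1*, *Herpud1* and *Ssr4*, and 0 lower, with a median of 0.48, and 0 with the other totals. Of the beta-lineage factors, 0 of 7 were called by edgeR or DESeq2, with 2 lower at an unadjusted p below 0.05. *Pdx1* was at 601, 604, 436 and 516 CPM at E14.5 and at 514 and 336 CPM at E17.5, a difference of -0.16 (SE 0.25, adjusted p = 0.99 by edgeR), and *Nkx6-1* differed by 0.21 (SE 0.29).

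*Isl1*, a LIM homeodomain factor of islet cells, was the 1 of 14 shared endocrine factors called. It was at 880, 729, 533 and 880 CPM at E14.5 and at 271 and 254 CPM at E17.5, lower by 1.3 on the log2 scale (SE 0.28, adjusted p = 0.021 by edgeR), with separate groups. The call was lost without E17.5 SW or E17.5 Batch 2, and either fit leaves 1 pool at E17.5. *Cck*, the cholecystokinin gene, was at 161, 197, 84.0 and 208 CPM at E14.5 and at 7.97 and 6.49 CPM at E17.5, the largest fall of the named genes at 4.23 (SE 0.45, adjusted p = 1.3e-05 by edgeR). *Gast* went from 68.2, 164, 201 and 235 to 3.98 and 15.7 CPM (-3.65, SE 0.42), and *Sct*, the secretin gene, from 211, 341, 136 and 104 to 35.8 and 13.4 CPM (-2.87, SE 0.35). *Mdk* and *Ptn*, related heparin-binding growth factors, fell by 3.19 (SE 0.41) and 3.10 (SE 0.52), and *Mia* fell by 2.68 (SE 0.37). The call of *Ptn* was lost without E17.5 SW, which leaves 1 pool at E17.5.

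**Figure D3:**
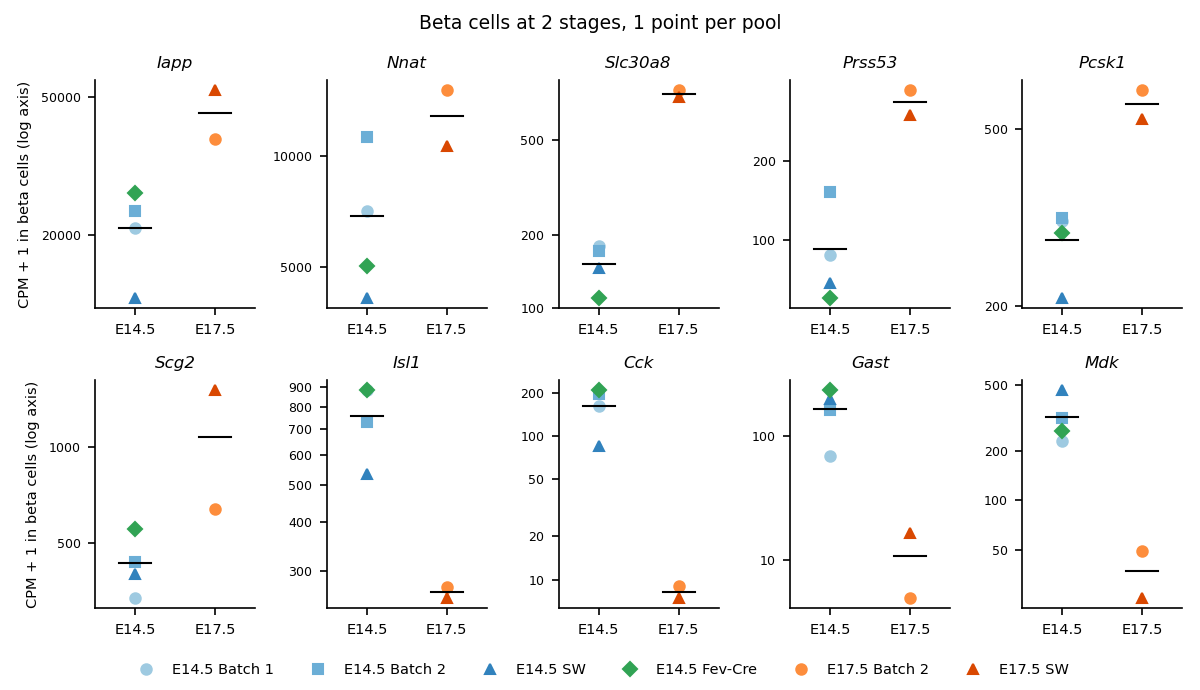
CPM + 1 on log axes of 10 genes in beta cells of the 4 E14.5 pools and the 2 E17.5 pools, 1 point per pool, with the mean of the plotted values as a bar. The E17.5 points lie above all E14.5 points for *Slc30a8*, *Prss53*, *Pcsk1*, *Iapp* and *Scg2*, and below all of them for *Isl1*, *Cck*, *Gast* and *Mdk*. *Nnat* at E17.5 SW lies below E14.5 Batch 2.

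Of alpha, delta and epsilon lineage genes 4 of 15 were called lower at E17.5 and 0 higher, with a median of -1.07. Imprinted genes had *Nnat* (1.18, SE 0.28) and *Rasgrf1* (1.88, SE 0.32) higher and *Mest* (-2.50, SE 0.48) and *Sgce* (-3.04, SE 0.59) lower among 21, with a median of -0.35. Cell cycle genes had 0 of 22 called by edgeR and by DESeq2, with 1 higher and 3 lower at an unadjusted p below 0.05. Erythroid genes moved with stage, at a summed 843, 2200, 5161 and 5.06 CPM in beta cells at E14.5 and at 18443 CPM in E17.5 Batch 2 and 51122 and 61760 CPM in the E17.5 SW wells. With them left out, 83 genes were called, 82 of them also called with them. Of these erythroid genes 6 were tested between stages and 0 called by edgeR or DESeq2, with 1 higher at an unadjusted p below 0.05 and a median of 4.21, and their part in the other calls was not tested. Acinar, ductal, mesenchymal, endothelial and immune genes had 0 calls between stages by either tool, with 1 acinar, 3 ductal and 2 immune genes higher at an unadjusted p below 0.05.

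Within a pool, beta cells with more insulin also carried more *Npy*, *Iapp*, *G6pc2* and *Trpm5* and more of a few folding and granule genes such as *Hsp90b1* and *Scg2*, and less *Fev*, *Id2* and *Sox9*. Beta cells of each pool were ranked by insulin share and cut into 3 groups of equal size, low, middle and high, which are ranges of a score and not types of cell. In E17.5 SW the groups held a median of 12.7, 38.0 and 51.5% insulin, and in Fev-Cre 1.90, 5.33 and 14.9%. Insulin share also chose the cells, so the low group begins at the edge of the rule, at 1.03% in E14.5 SW and 1.02% in E17.5 SW. In the E17.5 SW wells *Col3a1* cells held 0.685 and 0.951% insulin. Cells near the edge may therefore carry free insulin RNA and not be beta cells, and their part in the calls below was not separated. In 5 pools with 10 or more cells in each group, 68 of 6166 genes (1.1%) were called higher in the high group and 61 (0.989%) lower, with a median of -0.02. Lower calls numbered 36 without doublet-like cells and 40 without E17.5 SW, and with totals that include insulin the split was 19 against 536 and the median -0.58. With a threshold of 2% insulin, 54 of 5705 genes were called higher and 36 lower.

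*Npy* was at 1660, 269, 116, 210 and 565 CPM in the low group of E14.5 Batch 1, E14.5 SW, Fev-Cre, E17.5 Batch 2 and E17.5 SW, and at 4954, 5424, 2980, 4504 and 5578 CPM in the high group. The groups did not overlap, and the log2 difference was 3.69 (SE 0.58, adjusted p = 0.038 by edgeR). The call was lost without E14.5 SW, E17.5 SW or E17.5 Batch 2, at 3.50, 3.84 and 3.57. *Iapp*, over the same pools, went from 14429, 7276, 17019, 24157 and 28994 to 27831, 21678, 37875, 59658 and 73119 CPM, higher in 5 of 5 pools by 1.3 (SE 0.13, adjusted p = 3.4e-07 by edgeR).

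The glucose sensing and excitation list had 5 of 14 genes higher and 0 lower, with a median of 0.44, and 2 of 8 when cells were thinned. *G6pc2* went from 157, 94.1, 162, 110 and 104 CPM in the low groups to 727, 445, 408, 681 and 605 CPM in the high groups, a difference of 2.12 (SE 0.16, adjusted p = 1.8e-08 by edgeR) with no overlap. *Slc2a2* differed by 1.09 (SE 0.12), *Ucn3* by 1.28 (SE 0.22), *Tmem215* by 1.24 (SE 0.20) and *Trpm5* by 2.08 (SE 0.35), each in 5 of 5 pools. The other genes with the largest rise were *Col6a3* (2.60, SE 0.24), which encodes a collagen chain, *Bace2* (2.32, SE 0.31) and *Syndig1l* (2.25, SE 0.29).

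Granule genes had 4 of 29 higher, *Scg2*, *Ptprn*, *Vgf* and *Iapp*, with 13 higher and 0 lower at an adjusted p below 0.05 at any size and a median of 0.44. Folding genes had 3 of 28 higher, *Hsp90b1*, *Hyou1* and *Ssr4*, with 20 higher and 0 lower at any size and a median of 0.69. *Hsp90b1*, the chaperone GRP94, went from 542, 924, 920, 927 and 1603 to 1431, 2127, 1859, 1541 and 2636 CPM, a difference of 1.01 (SE 0.12, adjusted p = 4.2e-06 by edgeR). The beta-lineage factors were not called in 5 tested by edgeR, with 1 lower at an adjusted p below 0.05 at any size, 3 lower at an unadjusted p below 0.05 and 0 called by DESeq2. *Pdx1* differed by -0.30 (SE 0.13, adjusted p = 0.18) and *Nkx6-1* by 0.17 (SE 0.13, adjusted p = 0.53).

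**Figure D4:**
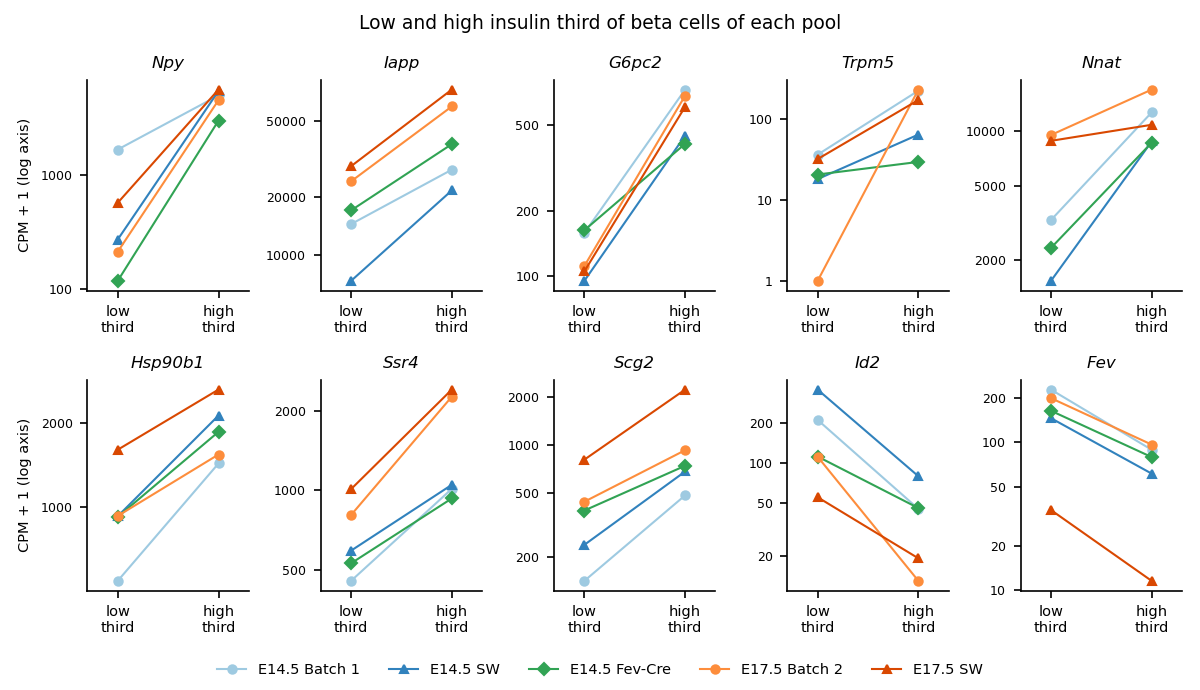
CPM + 1 on log axes of 10 genes in the low and high insulin group of beta cells of 5 pools, with lines joining the groups of a pool. *Npy*, *Iapp*, *G6pc2*, *Trpm5*, *Nnat*, *Hsp90b1*, *Ssr4* and *Scg2* lie higher and *Id2* and *Fev* lower in the high group in every pool, of which the test did not call *Nnat* (1.52, SE 0.39, adjusted p = 0.12 by edgeR).

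Progenitor genes had 4 of 14 called lower in the high group and 0 higher, *Fev*, *Runx1t1*, *Sox9* and *Vim*, with a median of -0.35. *Fev* went from 227, 145, 163, 199 and 33.8 to 88.1, 60.4, 78.5, 95.6 and 10.5 CPM, lower in 5 of 5 pools by 1.25 (SE 0.18, adjusted p = 4.4e-05 by edgeR), and *Id2*, an inhibitor of helix-loop-helix factors, was lower by 1.72 (SE 0.18, adjusted p = 7.9e-07). The genes with the largest fall were *Serpine2*, *Cela3b*, *Mgst1*, *Id2*, *Dbpht2* and *Mt2*, between 1.64 and 1.86 on the log2 scale. *Cela3b* is an acinar elastase. Acinar genes had 5 of 7 lower and ductal genes 3 of 9, and the low group of E17.5 SW held 31 of its 38 doublet-like cells, the middle group 7 and the high group 0. Without those cells 0 of 5 acinar genes, 1 of 7 ductal genes and 3 of 13 progenitor genes were called, and without E17.5 SW 0 of 6 ductal genes and 2 of 11 progenitor genes. Erythroid genes were at a summed 90034 and 109720 CPM in the low groups of the E17.5 SW wells and at 10596 and 18434 CPM in the high groups, and of 3 tested 0 were called by edgeR, 1 was lower at an unadjusted p below 0.05 and 1 was called lower by DESeq2, with a median of -1.09. The 1 mesenchymal gene tested, *Vim*, was called lower and the 1 immune gene tested, *C1qa*, higher (1.46, SE 0.15). The part of these markers in the other calls was not tested. Median depth outside the genes of the rule was 10556.5 UMIs in the low and 12994 in the high group of E17.5 SW.

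At E17.5 the spread between single beta cells was compared gene by gene, in 742 SW cells thinned to 2000 UMIs outside the genes of the rule. Of 1544 genes with a mean of at least 0.2 UMI, the median Fano factor (variance over mean, 1 for counting noise alone) was 1.05 and 47 genes exceeded 2. The 15 genes with the widest spread fell into 4 kinds. They were globins (*Hbb-bs* 333, *Hba-a1* 284, *Hbb-bt* 76.1), acinar genes (*Ctrb1* 159, Pnliprp1 40.5, *Clps* 26.2, *Cela3b* 20.4, *Cpa1* 11.4), peptides of endocrine cells (*Iapp* 35.0, *Pyy* 27.3, *Ppy* 19.3, *Npy* 18.3) and Malat1 (14.3), *Nnat* (10.0) and *Spp1* (8.71). The acinar values rested largely on the second SW well, with 29.3 and 233 for *Ctrb1*, 16.6 and 57.6 for Pnliprp1 and 8.97 and 39.8 for *Clps* in the first and the second well, while *Iapp* was at 33.9 and 36.3. No test was made, since cells are not replicates.

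The order of the acinar genes moved without doublet-like cells, which were chosen in part by acinar genes, so a fall follows from the choice. In the 704 cells without them *Ctrb1* fell to 9.96, Pnliprp1 to 3.90 and *Clps* to 4.89, while *Iapp* was at 33.1, *Pyy* at 27.5, *Npy* at 18.3 and *Nnat* at 9.70, and *Hbb-bs* was still at 219. Of the 15 genes 12 stayed among the 15 widest. In the 52 thinned cells of E17.5 Batch 2 the Fano factor was 30.9 for *Iapp*, 79.2 for *Pyy*, 19.5 for *Npy* and 12.1 for *Nnat*, 539 for *Hbb-bs* and 2.83 for Malat1. Acinar genes were too sparse there to show a spread. *Ctrb1* had a mean of 0.038 UMI per cell, *Cela3b* and *Cpa1* of 0.019, and *Clps* and Pnliprp1 had 0 UMIs. At so few UMIs the Fano factor is near 1 by arithmetic (0.98 for *Ctrb1*, 1 for *Cela3b* and *Cpa1*). At E14.5, SW and Fev-Cre gave 17.4 and 19.5 for *Iapp*, 48.5 and 28.3 for *Pyy* and 16.5 and 11 for *Npy*. The Fano factor moves with the mean, and the means differed. They were 29.5 and 53.2 UMIs for *Iapp* against 101 in E17.5 SW, 24.4 and 19.7 against 4.47 for *Pyy*, and 4.73 and 2.49 against 6.02 for *Npy*. These values therefore do not rank the stages by spread.

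**Figure D5:**
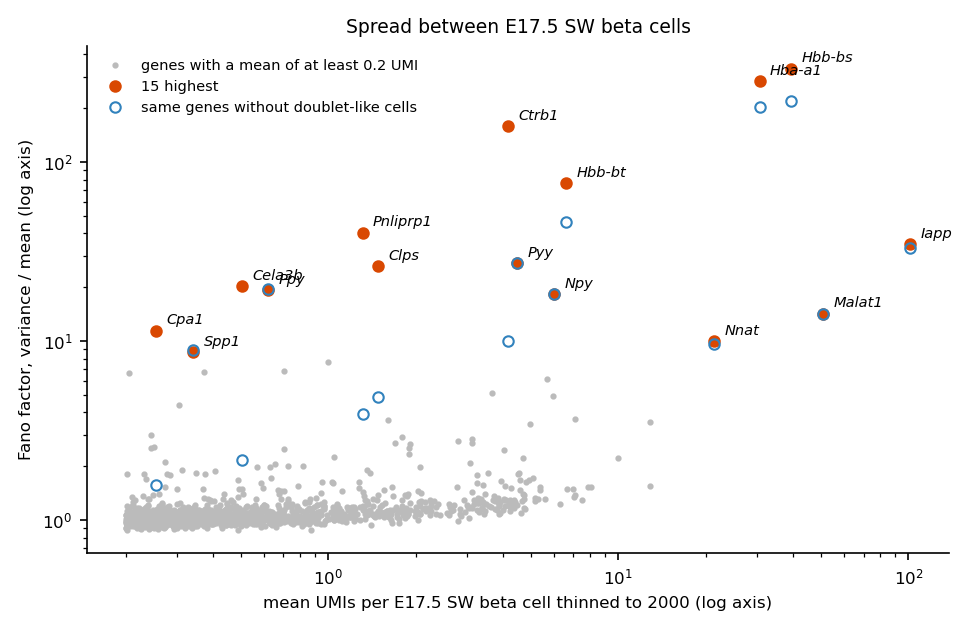
Fano factor against mean UMIs per cell, both on log axes, for 1544 genes in E17.5 SW beta cells thinned to 2000 UMIs, with the 15 widest named and open circles for the same genes without doublet-like cells. Most genes lie near 1 (median 1.05), and the globins, acinar genes, *Iapp*, *Pyy*, *Ppy* and *Npy* lie well above.

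Part of the spread followed the insulin share of the cell. Spearman's rho of thinned UMIs with insulin share was 0.67 and 0.76 for *Iapp* in the SW wells (386 and 356 cells) and 0.55 in E17.5 Batch 2 (52 cells). It was 0.52, 0.57 and 0.46 for *Npy*, and 0.48, 0.43 and 0.48 for *G6pc2*. *Scg2* gave 0.49 and 0.47 and *Ssr4* 0.52 and 0.51 in the wells. Cells with more insulin had less *Pyy* (-0.27, -0.23 and -0.36), less *Rbp4* (-0.44, -0.33 and -0.38) and less Malat1 (-0.37, -0.35 and -0.18). Of the 1544 genes, 55 lay beyond 0.2 with the same sign in both wells. The cells of a well share their library, and depth entered as well, with a rho against a cell's UMIs of 0.34 for *Iapp*, 0.37 for *Npy* and -0.41 for Malat1 and of insulin share itself of 0.28 and 0.25, so these are descriptions. *Ppy*, found in 13.9% of cells, had a rho of -0.03 in both wells, and *Spp1*, found in 13.2%, of 0.02 and -0.04.

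Transcripts of cell cycle genes were counted in single beta cells, with a threshold that was not calibrated on cells known to divide, so the shares are no estimate of dividing cells. Thinned to 2000 UMIs, 3 or more UMIs of 10 cycle genes were found in 3.93% of 229 E14.5 SW beta cells (exact binomial interval 1.81 to 7.33%) and in 4.66% and 5.34% of the E17.5 SW cells. The share was 0.503% in Fev-Cre (0.0609 to 1.80%), and in the Batch pools 0 of 40, 0 of 24 and 0 of 52 cells, with upper bounds of 8.81, 14.2 and 6.85%. At E17.5 these cells were found in all 3 insulin groups, 2, 9 and 7 in the low, middle and high group of the first well and 3, 4 and 12 in the second. *Ccnd2*, a cyclin of beta cell growth, was at 181 CPM in the low and 876 CPM in the high group of E17.5 SW but at 192 and 66.1 CPM in E14.5 Batch 1, and it was not called over the pools (0.80, SE 0.77, adjusted p = 0.70 by edgeR).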

How the data were processed

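The deposited matrices hold counts of UMIs per gene and cell, which the authors made with Cell Ranger 1.1 (Batch libraries) or 2.1 (SW and Fev-Cre) against mm10, per the submitters' processing notes and the methods. The libraries held 15671934 to 102656012 UMIs at E14.5 and E17.5. The authors removed doublets by size selection while sorting and, in their own analysis, dropped cells that held genes of incompatible lineages. Whether the deposited matrices lack those cells is not stated in the sources used here, and no caller was run. For Fev-Cre the matrix with reporter transcripts was used. The Batch matrices held no mitochondrial UMIs. The 27716 genes that all matrices share were analysed.

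Cells with 200 or more genes were classed by the rule, and the members, gene lists and tests were chosen with earlier results of these data known. UMIs were summed per pool and class, leaving out the 7 genes of the rule and 13 mitochondrial genes, for pools with 10 or more cells in both classes. edgeR 4.0.16 (limma 3.58.1, R 4.3.3) was run with filterByExpr, TMM and robust quasi-likelihood fits. The pool was a block, since its classes came from 1 suspension. Python 3.11.15 with numpy 2.4.6, scipy 1.17.1 and pandas 2.3.3 was used otherwise. Named genes were the list members and, by comparison, those with the largest difference among called genes that moved alike in every pool, or with separate stages, and reached 50 CPM in 1 class. Overlap of the ranges of cell classes was looked at for named and list genes only, so no share over all genes tested is given. p-values measure the spread between pools. Fits were tested on simulated data, where 62% of genes changed by 1.5 (log2) were recovered between stages. Alternatives were DESeq2 1.42.0 and its size factors, totals with the genes of the rule, no filter on low counts, other cell thresholds, thinning to 2000 UMIs, no block and leaving out each pool. Some genes of the lists are not reported here.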

Additional observations from a re-analysis of the deposited data

Results flagged for a closer look

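In 46 groups of 4, 5 or 6 pools, those of 4 being the E14.5 pools alone, the pool furthest from the others was compared with the range. Of these groups, 4 stood out by Dixon's criterion, and chance flags about 1 in 20 groups. All 4 are log2 differences of CPM + 1 in a pool where 1 class was at 0 CPM. For *Tmem215* the difference of beta cells from other *Chga* cells was 6.555 in E14.5 Batch 1 and 3.38 to 4.444 in the other pools. For *Trpm5* the difference between the high and low insulin group was 7.833 in E17.5 Batch 2 and 0.5164 to 2.622 elsewhere. For *Serpine2* it was -7.833 in E14.5 Batch 1 against -2.506 to -0.9372, and for *Cela3b* -6.147 in the same pool against -1.813 to -0.8336. In the E12.5 SW library, which entered no comparison, 5 cells of 13182 met the rule for beta cells, above the 3 cells that a count of 0 allows, and 2 of the 5 were doublet-like.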

How the results depend on the processing

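Of 661 values under the alternatives, for the 44 gene entries named for the size of their difference (the other list members were followed by list counts only), 631 kept their direction and their side of the threshold, 29 kept their direction only, and 1 turned, *Col1a1* against other *Chga* cells, at 0.20 with comparison cells of at most 1 *Col3a1* UMI. Totals that include the genes of the rule, without TMM, gave 169 genes higher and 867 lower against other *Chga* cells, 234 and 527 against alpha cells, 183 and 863 against hormone-low cells, 21 and 323 (344 in all) between stages and 19 and 536 (555 in all) between insulin groups. With no filter on low counts the calls numbered 2309 (585 higher, 1724 lower), 1193 (618, 575), 1955 (719, 1236), 202 (127, 75) and 298 (137, 161) in the same order. With cells thinned to 2000 UMIs they numbered 366 (199, 167), 334 (213, 121), 395 (224, 171), 32 (20, 12) and 68 (44, 24), and fewer genes passed the filter. Without doublet-like cells 278 genes were lower against other *Chga* cells, 246 against alpha cells, 271 against hormone-low cells and 36 between insulin groups, where a threshold of 2% insulin also gave 36. Without the block, that is, with the classes of a pool not paired, 488 genes were called against other *Chga* cells (241 lower) and 8 between insulin groups (8 higher, 0 lower). Of the 29 values that kept their direction only, counted over all alternatives, 10 came from the fit without the block. The stage comparison gave 40 calls (26, 14) without the Fev-Cre pool and 21 (14, 7) with no term for the data set. With 1 pool left out at a time, calls ranged from 612 to 1086 (higher 271 to 393, lower 339 to 705) against other *Chga* cells, from 313 to 860 (196 to 453, 117 to 413) against alpha cells and from 460 to 1091 (241 to 483, 219 to 643) against hormone-low cells. They ranged from 31 to 147 (17 to 81, 14 to 66) between stages and from 102 to 174 (54 to 93, 40 to 81) between insulin groups. Apart from fewer genes or samples entering, the cause of these shifts was not tested. *Mafa*, *Kcnj11* and *Glp1r*, at 5, 5 and 11 UMIs over all beta cells, were too sparse to test, and depth and low expression cannot be told apart there.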
